A study of Mus musculus with 24 samples.

Results

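Glycolysis genes and genes known as targets of the hypoxia-inducible factors (HIFs) were described in cultured primary keratinocytes of the mouse, the cells that build the epidermis. The 37 genes were chosen by gene symbol: 20 belong to glycolysis, counting glucose uptake, its regulators and lactate export, and 17 are other HIF-pathway genes. Each gene is represented by the probe set that carries only its symbol and has the highest mean over all arrays. By this rule 34 of the 37 genes were measured, out of 19937 genes in all: 17 glycolytic and 17 non-glycolytic. Gpi1, Eno1 and Gapdh were not measured, since only probe sets with several symbols carried Gapdh (11 of them) and no probe set with 1 symbol was listed for Gpi1 or Eno1. Of the 34 genes, 29 had 1 such probe set and 5 (Hk1, Pkm, Bnip3, Bnip3l and Higd1a) had several.

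The cells came from wild-type C57/BL6 mice and from Ppar-beta null mice of the same labelled strain, which lack the nuclear receptor PPAR-beta, also called PPAR-delta, encoded by Ppard. After 2 days of culture, cells of either genotype were mock transduced or received a retrovirus carrying activated Hras, a growth-promoting oncogene, for 48 hours. Each was given the vehicle DMSO or 1 uM GW0742, a synthetic PPAR-beta agonist, for 24 hours. The labels give neither the age of the mice nor how many mice or cultures stand behind a group, so the p-values rest on array-to-array spread that could be purely technical. The small number of arrays limits the precision. The 8 groups held 3 arrays each, 24 in all.

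Glycolysis breaks glucose down to pyruvate in the cytosol, and lactate dehydrogenase turns pyruvate into lactate, which leaves the cell through monocarboxylate transporters. HIF-1, a dimer of HIF-1alpha (Hif1a) and ARNT, raises the transcription of most glycolytic genes when oxygen is scarce, and growth-factor signalling can raise it with oxygen present. With oxygen, prolyl hydroxylases such as Egln1 and Egln3 mark HIF-1alpha for destruction through VHL. HIF-1alpha is thus regulated mainly as a protein, which an array does not see, and the hydroxylases Egln1 and Egln3 are HIF targets themselves. In the epidermis, which has no vessels of its own, HIF activity is part of the normal state of the tissue.

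HIF dimers bind a short core motif, ACGTG or GCGTG, so the promoters of 5 genes are shown to let their spacing of this motif be seen. They were picked, among the 11 genes given array by array further on, for the most matches in their window from 250 bases before to 50 after the start, on either strand; Adm, Egln1, Hk2 and Slc16a3 tied for the last place, which went to Adm by name order. The 250 bases before the start are printed 5′ to 3′ on the gene's strand, from RefSeq (GRCm38.p6), with the core motif of either strand in capitals; CACGTG holds a match on both strands and counts as 2. Bnip3 (chr7:138909507-138909756, minus strand) had 5 matches there, Pfkfb3 (chr2:11502091-11502340, minus strand) had 3, Pfkp (chr13:6648772-6649021, minus strand) had 3, Hif1a (chr12:73907617-73907866, plus strand) had 3 and Adm (chr7:110627407-110627656, plus strand) had 2.
Bnip3: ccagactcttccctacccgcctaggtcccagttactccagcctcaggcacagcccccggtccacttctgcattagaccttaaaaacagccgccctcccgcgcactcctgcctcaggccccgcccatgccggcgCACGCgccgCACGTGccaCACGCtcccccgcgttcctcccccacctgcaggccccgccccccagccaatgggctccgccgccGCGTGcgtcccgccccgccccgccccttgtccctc
Pfkfb3: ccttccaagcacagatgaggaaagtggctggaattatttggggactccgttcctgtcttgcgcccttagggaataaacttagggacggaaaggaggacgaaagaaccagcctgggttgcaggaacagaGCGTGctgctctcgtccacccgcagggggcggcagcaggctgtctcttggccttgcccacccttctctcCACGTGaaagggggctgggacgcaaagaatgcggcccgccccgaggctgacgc
Pfkp: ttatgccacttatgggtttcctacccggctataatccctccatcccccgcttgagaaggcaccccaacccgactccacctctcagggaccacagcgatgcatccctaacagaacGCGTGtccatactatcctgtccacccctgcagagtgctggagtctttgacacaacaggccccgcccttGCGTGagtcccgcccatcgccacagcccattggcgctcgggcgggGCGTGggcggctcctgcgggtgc
Hif1a: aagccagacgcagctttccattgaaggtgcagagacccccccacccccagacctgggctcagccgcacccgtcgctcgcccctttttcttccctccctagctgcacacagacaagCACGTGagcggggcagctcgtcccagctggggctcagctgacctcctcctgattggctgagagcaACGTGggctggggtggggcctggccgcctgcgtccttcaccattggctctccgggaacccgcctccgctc
Adm: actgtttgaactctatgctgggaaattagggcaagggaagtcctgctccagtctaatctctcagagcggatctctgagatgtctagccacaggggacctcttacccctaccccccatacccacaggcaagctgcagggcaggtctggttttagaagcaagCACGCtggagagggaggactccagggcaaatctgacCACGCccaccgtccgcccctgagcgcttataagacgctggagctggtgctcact

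Bnip3 showed its matches between 117 and 35 bases before the start, in a stretch with 72.4% G and C. Those of Pfkfb3 lay between 122 and 52 bases before it, those of Pfkp between 136 and 23, those of Hif1a between 135 and 70 and those of Adm at 90 and 54. RefSeq windows were found for 34 of the 37 genes, 51 windows in all, since some genes have several starts. These are not the same 34 as the measured genes: Gpi1, Eno1 and Gapdh are included, and Slc2a3, Bnip3l and Ndrg1 are missing. The core motif was present in 40 of these 51 windows (78.4%), against 43.8% of all 32851 windows of the same length. For the 19 glycolytic genes with windows the share was 80.6% of 31 windows, and for the 15 others 75% of 20. The 51 windows also held more G and C (median 62.3%) than all windows (52.7%), and the part of this base composition in the share was not tested. The pair of AGGTCA motifs with 1 base between, which PPAR and RXR dimers bind, was searched in its exact letters on both strands: it was in 0 of the 51 windows and in 13 of all windows (0.0396%). A match is a string of letters, not evidence of binding, and a PPAR site can differ from these letters or lie elsewhere.

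Values are log2 expression as deposited, and changes are log2 differences ± standard error (SE) from 1 limma model fitted to the whole set of 24 arrays, with n = 3 per group. A change is said to pass, and a gene to have risen or fallen, when limma's p-value is under 0.05 after Benjamini-Hochberg adjustment across the 19937 genes. Median log2 expression per array lay between 7.46 and 7.53. Null cells read lower for Ppard itself, by 0.57 ± 0.06 in mock DMSO cells (adjusted p = 1.53e-06) and by 0.28 ± 0.06 in Hras DMSO cells (adjusted p = 0.00194). Which part of the gene its probes read was not determined. The agonist's known target Pdk4 rose by 4.14 ± 0.08 with GW0742 in wild-type mock cells (adjusted p = 1.06e-18), and its change was 0.16 ± 0.08 in null mock cells (adjusted p = 0.903). In null Hras cells Pdk4 rose by 0.29 ± 0.08 (adjusted p = 0.0431), against 5.83 ± 0.08 in wild-type Hras cells. The null Hras GW0742 arrays varied more than the others, with a median SD over genes of 0.122 against 0.0647 to 0.0798 in the other groups. Basal keratinocyte markers were bright in every group: Krt5 and Krt14 had group means of at least 13.95, and the log2 of the summed level of the 10 basal markers lay between 16.38 and 16.82 in all arrays.

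Read as a module, the genes were lowest in mock cells and highest after Hras with GW0742. The median deviation of the glycolytic genes from their wild-type mock DMSO means was 0.11 ± 0.01 (SD, n = 3) in wild-type mock GW0742 cells, 0.31 ± 0.03 in wild-type Hras DMSO cells and 0.53 ± 0.07 in wild-type Hras GW0742 cells. In null cells it was 0.09 ± 0.04 (mock DMSO), 0.10 ± 0.01 (mock GW0742), 0.38 ± 0.02 (Hras DMSO) and 0.68 ± 0.10 (Hras GW0742). The non-glycolytic genes spread further: 0.12 ± 0.01, 0.20 ± 0.03 and 0.75 ± 0.08 for the same wild-type groups, and 0.09 ± 0.02, 0.02 ± 0.08, 0.63 ± 0.03 and 0.90 ± 0.14 for the null groups. The highest group mean was in null Hras GW0742 cells for 13 of 17 glycolytic and 11 of 17 non-glycolytic genes. The share of all genes with their highest mean there was not counted. The null Hras GW0742 arrays varied most, and their difference from wild-type Hras GW0742 cells was not tested. Within the module the distance between a gene's highest and lowest group mean ran from 0.14 (Hk1) to 3.24 (Adm). The Hk1 probe set used may read a copy of the sequence, as described further on. Another Hk1 probe set had group means from 9.92 to 10.79.

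**Figure D1:**
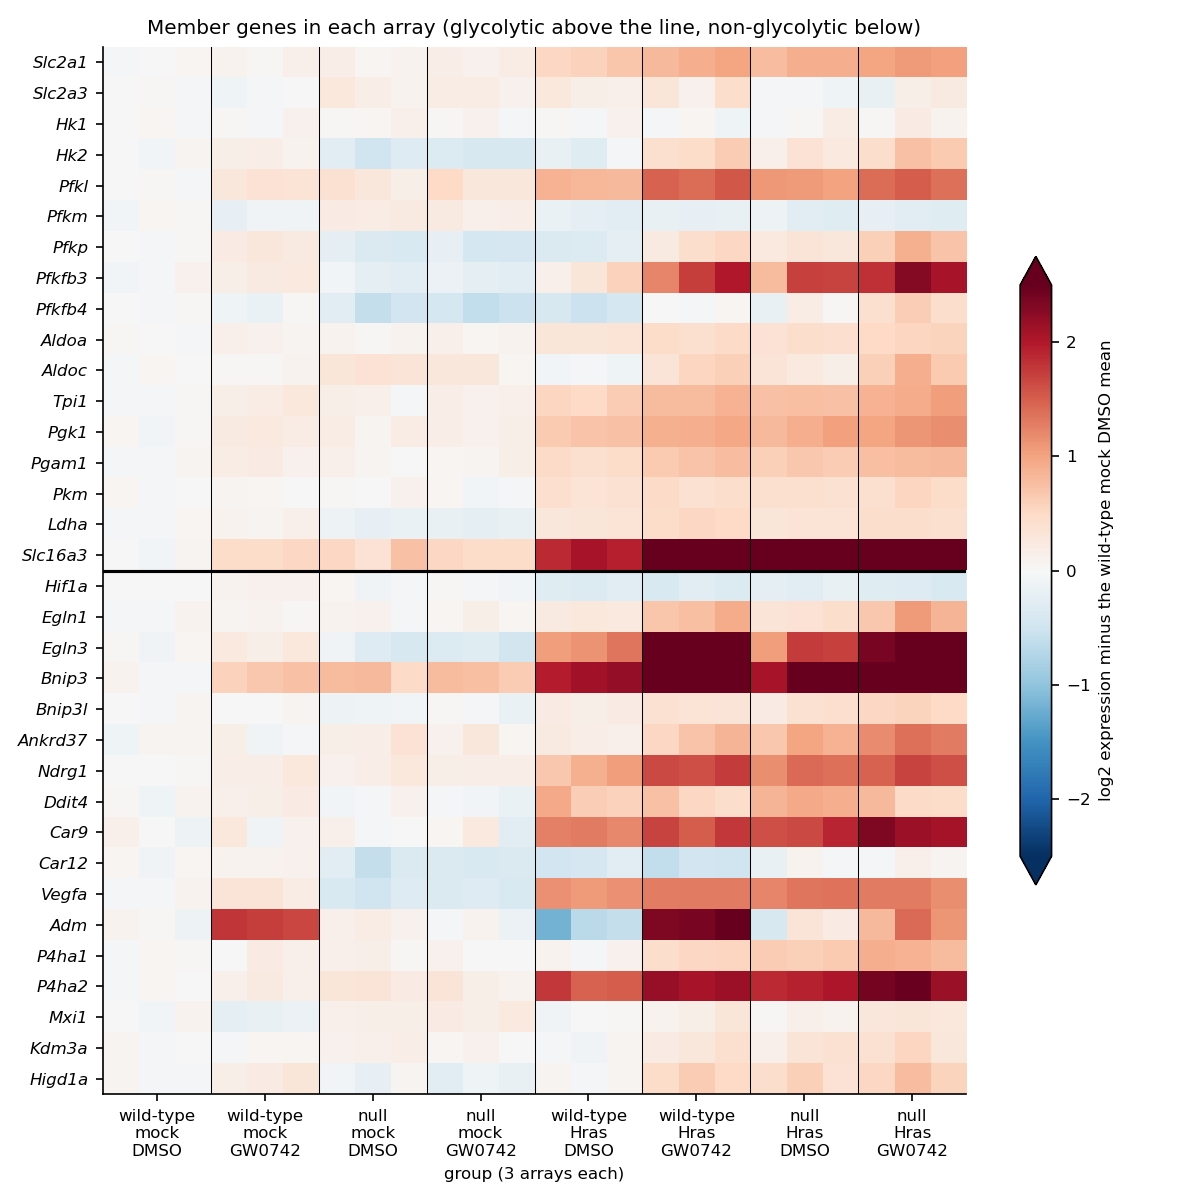
Log2 expression of each of the 34 measured genes (rows) in each of the 24 arrays (columns, 3 per group), less the gene's mean in wild-type mock DMSO cells; the colour scale stops at the ends of its bar, and values beyond them share the end colour. The Hras arrays on the right are warmer than the mock arrays for most genes, and Hif1a is cooler there.

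In wild-type mock cells GW0742 raised a handful of these genes. Adm, which encodes the vasodilator peptide adrenomedullin, rose by 1.73 ± 0.16 (3.32-fold, adjusted p = 6.82e-07), and Bnip3, a mitochondrial receptor for mitophagy, by 0.66 ± 0.12 (1.58-fold, adjusted p = 0.00154). The lactate exporter Slc16a3 rose by 0.48 ± 0.08, the liver-type phosphofructokinase Pfkl by 0.33 ± 0.06, the vessel growth factor Vegfa by 0.29 ± 0.06 and the phosphoglycerate kinase Pgk1 by 0.21 ± 0.06, with adjusted p-values between 0.00055 and 0.0418. Pgk1, the weakest of these, missed the threshold with any of the 6 arrays left out (adjusted p from 0.0706 to 0.231) and with only those 6 arrays in the model (0.0591). In all, 6 of the 34 genes rose (3 glycolytic, 3 non-glycolytic) and 0 fell, where 1.25% of all genes rose and 1.61% fell. The median change was 0.09 for the glycolytic and 0.10 for the non-glycolytic genes, beside 0 for all genes. Tpi1, the triose-phosphate isomerase (0.20 ± 0.06, adjusted p = 0.0647), and the phosphoglycerate mutase Pgam1 (0.17 ± 0.05, adjusted p = 0.0779) did not pass.

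In null mock cells 0 of the 34 genes passed in either direction with GW0742, and 0 had an unadjusted p under 0.05 in limma; of all genes 0% rose and 0% fell. The changes ran from -0.17 (Adm) to 0.07 (Pfkl), with medians of -0.02 in both classes. The effect of GW0742 was compared directly between genotypes: 2 genes had a lower effect in null than in wild-type mock cells, where the same was true of 0.562% of all genes and a higher effect of 0.286%. For Adm the effects differed by -1.90 ± 0.23 (adjusted p = 4.86e-05) and for Slc16a3 by -0.53 ± 0.11 (adjusted p = 0.0124). The difference for Slc16a3 had an adjusted p of 0.0512 without the replicate 2 array of wild-type mock DMSO cells, which leaves 1 gene.

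After Hras, GW0742 raised most of the module in wild-type cells. Adm rose by 3.24 ± 0.16 (9.44-fold, adjusted p = 1.21e-11), Egln3 by 1.49 ± 0.15 (2.81-fold, adjusted p = 8.64e-07) and Pfkfb3, the kinase that makes the strongest activator of phosphofructokinase, by 1.31 ± 0.19 (2.48-fold, adjusted p = 8.51e-05). Bnip3 rose by 0.98 ± 0.12 (1.97-fold), the stress-response gene Ndrg1 by 0.81 ± 0.08 (1.75-fold) and Slc16a3 by 0.76 ± 0.08 (1.69-fold), with adjusted p-values between 5.42e-07 and 5.52e-06. In total 24 of the 34 genes rose, 12 in each class, and 0 fell, where 4.46% of all genes rose and 1.65% fell. The median change was 0.27 for the glycolytic genes and 0.44 for the non-glycolytic ones, beside -0.01 for all genes. With each of the 6 arrays left out in turn 20 of the 24 passed every time, the exceptions being Pgk1, Car9, Mxi1 and Kdm3a, and with only the 6 arrays in the model 18 passed. Among the 10 that did not pass were Hif1a (-0.02 ± 0.05, adjusted p = 0.911) and Vegfa (0.17 ± 0.06, adjusted p = 0.0863). Suprabasal keratinocyte markers moved in the same comparison: 4 of the 7 measured (of 10 listed) rose and 1 fell, and the log2 of their summed level went from between 12.99 and 13.33 in DMSO arrays to between 13.80 and 13.91 with GW0742. Their part in the result was not tested, and in such bulk RNA fewer cells of a type and less RNA per cell cannot be told apart.

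The ligand effect in wild-type cells, as a signed change, was higher after Hras than in mock cells for 12 of the 34 genes (5 glycolytic, 7 non-glycolytic) and lower for 0. Of all genes it was higher for 2.05% and lower for 0.421%. The difference was 1.51 ± 0.23 for Adm (adjusted p = 0.000637), 1.27 ± 0.22 for Egln3 (adjusted p = 0.0017), 1.11 ± 0.27 for Pfkfb3 (adjusted p = 0.0304) and 0.60 ± 0.11 for Ndrg1 (adjusted p = 0.00425). The median difference was 0.16 over the glycolytic and 0.32 over the non-glycolytic genes. Without the replicate 3 array of wild-type Hras GW0742 cells 4 genes remained past the threshold, and Pfkfb3 was not among them (adjusted p = 0.113). Leaving out replicate 3 of wild-type mock DMSO or replicate 2 of wild-type Hras DMSO left 7 each. Adm, Egln3, Ndrg1 and Mxi1, a repressor of Myc, passed with each of the 12 arrays left out.

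In null Hras cells GW0742 also raised members of the module. Egln3 rose by 1.17 ± 0.15 (2.25-fold, adjusted p = 0.000134), Adm by 1.07 ± 0.16 (2.09-fold, adjusted p = 0.000457), Bnip3 by 0.81 ± 0.12 (1.75-fold, adjusted p = 0.000259), Pfkfb3 by 0.67 ± 0.19 (1.59-fold, adjusted p = 0.0492) and Egln1 by 0.50 ± 0.08 (1.41-fold, adjusted p = 0.000446). In all 17 of 34 genes rose (8 glycolytic, 9 non-glycolytic) and 0 fell, where 3.51% of all genes rose and 1.51% fell; the medians were 0.17 and 0.23. All 17 were among the 24 that rose in wild-type Hras cells, so the shared genes were 70.8% of the wild-type list and 100% of the null list. The matching overlap over all genes was not counted, so this overlap cannot be read as a trait of the module. These calls rest on the spread estimated over all 24 arrays: with only the 6 arrays of the 2 groups in the model, 0 of the 34 and 0 of all genes passed. Among the 34 genes the replicate 1 arrays of the Hras groups deviated together, and 9 genes had their lowest array at replicate 1 in all 4 Hras groups. In most pairs of Hras groups the replicate 3 arrays deviated together too. With the replicate number as a block in the 6-array model, an alternative chosen after seeing the data, 3 of the 34 genes (Egln3, Adm and Bnip3) and 0.627% of all genes passed. Without replicate 2 of the null Hras GW0742 arrays 8 genes passed, and without replicate 1 of the null Hras DMSO arrays 9; Egln3, Egln1, Bnip3, Adm, Pfkl, Pfkp, Pfkfb4 and Aldoc passed with each of the 6 arrays left out. Beside this, 3 of 7 suprabasal and 6 of 8 melanocyte markers rose and the log2 summed level of the melanocyte list went from between 12.76 and 12.90 to between 13.11 and 13.43; their part was not tested.

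Compared directly after Hras, the effect of GW0742 was smaller in null than in wild-type cells for 3 of 34 genes and larger for 0, where it was smaller for 1.21% of all genes and larger for 0.517%. The differences were -2.17 ± 0.23 for Adm (adjusted p = 5.73e-06), -0.53 ± 0.11 for Ndrg1 (adjusted p = 0.0157) and -0.42 ± 0.11 for Slc16a3 (adjusted p = 0.0471). The other 31 genes, Egln3 and Bnip3 included, did not pass this test of the difference. Without replicate 2 of null Hras DMSO cells, Adm alone passed, and Ndrg1 had an adjusted p of 0.0541. The difference for Slc16a3 passed with 2 of the 12 arrays left out in turn and missed the threshold with the other 10.

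**Figure D2:**
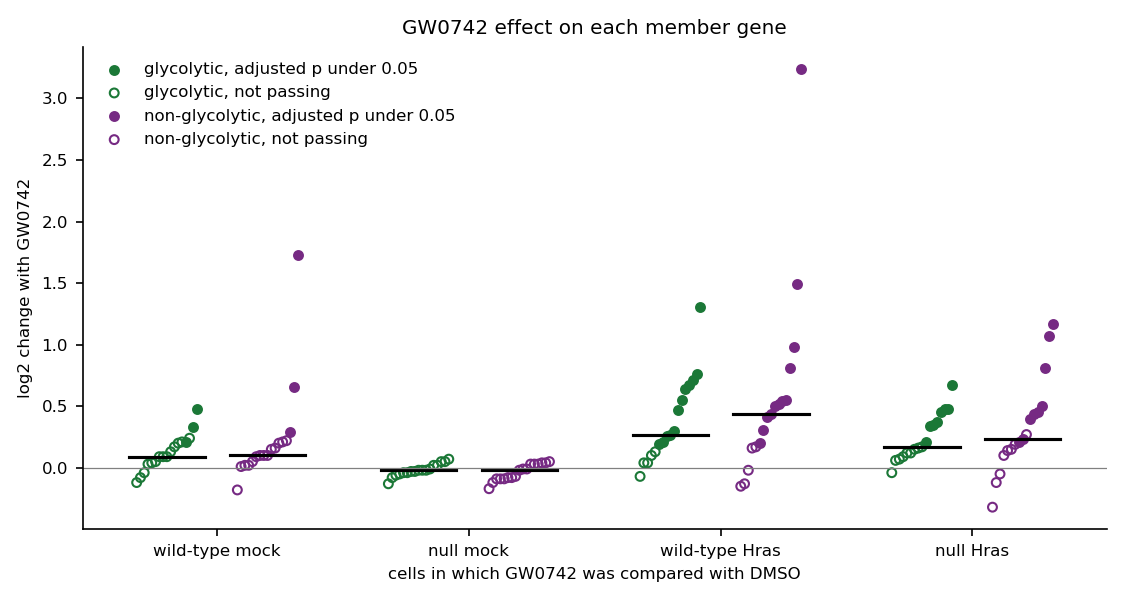
Log2 change with GW0742 against DMSO for each of 34 genes in 4 kinds of cells; each point is 1 gene, filled where limma's adjusted p is under 0.05, and black bars are class medians. In null mock cells all points lie between -0.17 and 0.07, and the highest point, Adm in wild-type Hras cells, is at 3.24.

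Activated Hras changed the module in both genotypes. In wild-type DMSO cells Bnip3 rose by 2.08 ± 0.12 (4.22-fold, adjusted p = 2.82e-12), Slc16a3 by 1.96 ± 0.08 (3.89-fold, adjusted p = 8.58e-15), the collagen prolyl hydroxylase P4ha2 by 1.58 ± 0.08 (2.99-fold, adjusted p = 8.64e-13) and the carbonic anhydrase Car9, which keeps the pH outside the cell acid, by 1.25 ± 0.12 (2.38-fold, adjusted p = 1.11e-08). Falls were seen for Adm (-0.82 ± 0.16, adjusted p = 0.000331), Pfkfb4 (-0.46 ± 0.09), Car12 (-0.39 ± 0.08), the platelet-type phosphofructokinase Pfkp (-0.31 ± 0.08), Hif1a (-0.31 ± 0.05) and Pfkm (-0.22 ± 0.05). In all 18 genes rose and 6 fell, with 9 rises and 3 falls in each class, where 18.4% of all genes rose and 19% fell. The median change was 0.31 for the glycolytic and 0.19 for the non-glycolytic genes, beside 0.02 for all genes.

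In null DMSO cells Hras raised 26 of the 34 genes, 13 in each class, and lowered 3 (Pfkm by 0.44 ± 0.05, the glucose transporter Slc2a3 and Hif1a), where 20.2% of all genes rose and 20.5% fell. Slc16a3 rose by 2.10 ± 0.08 (4.3-fold), Egln3 by 1.77 ± 0.15 (3.4-fold), Car9 by 1.71 ± 0.12 (3.27-fold), Vegfa by 1.70 ± 0.06 (3.26-fold) and Pfkfb3 by 1.59 ± 0.19 (3.01-fold), with adjusted p-values between 6.7e-16 and 5.17e-07. The fall of Slc2a3 (adjusted p = 0.036) passed in 1 of 6 fits with an array left out, and its adjusted p reached 0.153 without replicate 1 of null mock DMSO cells. The medians were 0.57 for the glycolytic and 0.53 for the non-glycolytic genes, beside 0 for all genes. Of the changes, 20 were shared in direction with wild-type cells, 83.3% of the 24 there and 69% of the 29 here. The matching shares over all genes were not counted. Markers of several cell types fell with Hras: in wild-type cells 10 of 10 fibroblast, 8 of 8 melanocyte, 8 of 10 basal and 6 of 7 suprabasal markers, and the log2 summed fibroblast level went from between 13.24 and 13.30 to between 11.88 and 11.97. In null cells 6 of 10 fibroblast markers fell and 2 rose, 8 of 8 melanocyte markers fell, 7 of 10 basal and 5 of 7 suprabasal markers fell with 1 of each higher, and the fibroblast level went from between 12.60 and 12.63 to between 11.93 and 12.21. Of 10 leukocyte markers 4 fell in each genotype, and in null cells 1 rose. Of 8 endothelial markers 1 fell in each genotype, with 2 higher in wild-type and 3 higher in null cells. The part of these cell types in the change of the module was not tested.

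The signed change with Hras was higher in null than in wild-type cells for 12 of the 34 genes (5 glycolytic, 7 non-glycolytic). It was lower for 1, Slc2a3 (-0.41 ± 0.12, adjusted p = 0.0256), which changed by 0.17 ± 0.09 in wild-type and -0.23 ± 0.09 in null cells. Of all genes it was higher for 8.35% and lower for 8.41%. A higher signed change can be a weaker fall. Adm, among the 12, fell in wild-type cells (limma adjusted p = 0.000331) and did not pass in null cells (0.722). The signed change differed by 1.25 ± 0.27 for Pfkfb3 (adjusted p = 0.0024), by 0.91 ± 0.12 for Pfkfb4 (adjusted p = 1.95e-05), by 0.91 ± 0.11 for Pfkp (adjusted p = 7.85e-06) and by 0.78 ± 0.12 for Hk2, the inducible hexokinase (adjusted p = 8.41e-05). Pfkp and Pfkfb4 fell with Hras in wild-type cells and rose in null cells, and so did Car12, a second carbonic anhydrase (-0.39 ± 0.08 and 0.36 ± 0.08). The median difference was 0.10 over the glycolytic genes and 0.28 over the others. Without replicate 3 of null Hras DMSO cells 8 genes passed in all, and without replicate 2 of null mock DMSO cells 8 had a higher signed change in null cells. The lower signed change of Slc2a3 was lost without replicate 3 of wild-type mock DMSO, replicate 1 of null mock DMSO, replicate 1 of wild-type Hras DMSO or replicate 3 of null Hras DMSO cells. Fibroblast markers differed in the same comparison, with a higher signed change in null cells for 8 of 10 and a lower one for 1. As a list they fell less in null cells, with a median change of -0.40 against -1.12 in wild-type cells. The signed change was also higher for 5 of 7 suprabasal, 4 of 8 melanocyte, 2 of 8 endothelial and 1 of 10 basal markers. It was lower for 2 of 10 leukocyte markers. The part of these cell types was not tested.

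**Figure D3:**
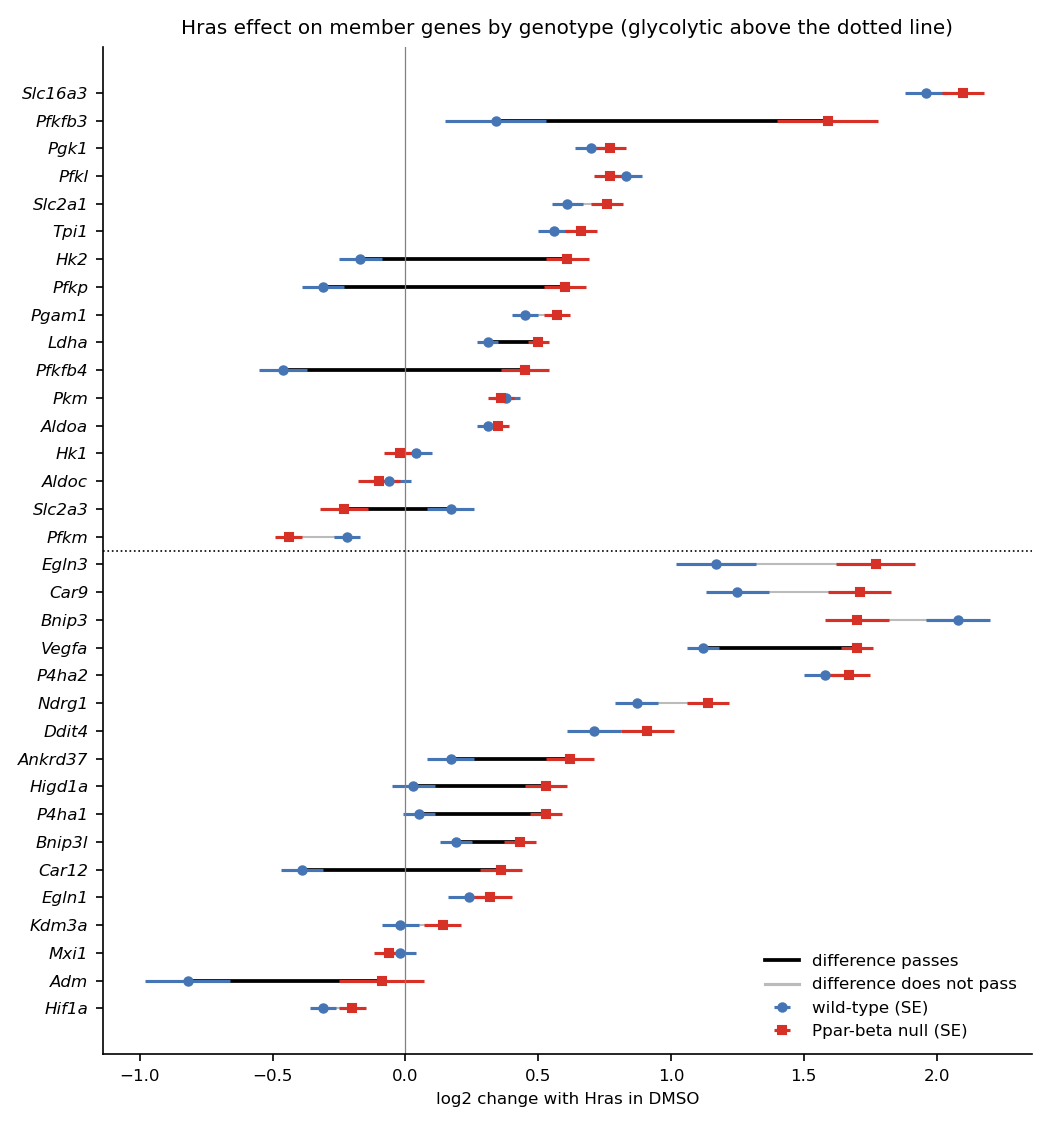
Log2 change with Hras in DMSO cells for each of 34 genes in wild-type (circles) and null (squares) cells with SE bars, n = 3 arrays per group; a black line joins the genotypes where the difference passes in limma and a grey one where it does not. Pfkfb3, Pfkp, Pfkfb4 and Hk2 have the widest black lines among the glycolytic genes.

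Between genotypes in mock DMSO cells 6 genes were higher in null cells and 6 lower, where 4.89% of all genes were higher and 5.53% lower. Bnip3 (0.68 ± 0.12, adjusted p = 0.000332), Slc16a3 (0.53 ± 0.08, adjusted p = 4.67e-05) and the brain-type aldolase Aldoc (0.33 ± 0.08, adjusted p = 0.00742) were higher. Lower were Pfkfb4 (-0.45 ± 0.09, adjusted p = 0.00128), Car12 (-0.41 ± 0.08), Vegfa (-0.39 ± 0.06, adjusted p = 5.56e-05), Hk2 (-0.36 ± 0.08), Pfkp (-0.31 ± 0.08) and Ldha (-0.16 ± 0.04), with 3 of these 6 passing once replicate 2 of null mock DMSO cells was left out. The medians, 0.07 and 0.04, lay near that of all genes, 0.03. Here 8 of 10 fibroblast markers were lower in null cells and 1 higher, at a log2 summed level between 12.60 and 12.63 against 13.24 to 13.30. Of the 8 melanocyte markers 5 were lower (13.65 to 13.70 against 13.94 to 14.02), and 2 of 10 leukocyte markers were higher (10.54 to 10.62 against 10.09 to 10.26). The part of these cell types in the result was not tested.

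After Hras, null DMSO cells had higher levels of 21 of the 34 genes (11 glycolytic, 10 non-glycolytic) and lower levels of 0, where 10.1% of all genes were higher and 9.32% lower. Pfkfb3 was higher by 1.06 ± 0.19 (2.09-fold, adjusted p = 0.000381), Adm by 0.87 ± 0.16 (1.82-fold, adjusted p = 0.000568), Slc16a3 by 0.68 ± 0.08 (1.6-fold, adjusted p = 1.42e-06), the HIF target Ankrd37 by 0.67 ± 0.09 (1.59-fold, adjusted p = 2.15e-05), Pfkp by 0.60 ± 0.08 (1.51-fold, adjusted p = 1.26e-05) and the collagen prolyl hydroxylase P4ha1 by 0.58 ± 0.06 (1.49-fold, adjusted p = 3.56e-07). With each of the 6 arrays left out in turn 15 of the 21 passed every time. The medians were 0.21 for the glycolytic and 0.33 for the non-glycolytic genes, beside 0.02 for all genes. This comparison shares its arrays with those of GW0742 and of Hras in the same cells, so their values are not independent. Suprabasal markers were higher in null Hras cells too, 5 of 7, at a log2 summed level between 13.56 and 13.79 against 12.99 to 13.33, and 6 of 10 fibroblast markers were higher with 1 lower; their part was not tested.

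Selected genes are given array by array, by role. Apart from Hif1a, they were chosen in each class for the largest change with GW0742 in wild-type Hras cells. Separation of their GW0742 from their DMSO arrays in wild-type Hras cells is favoured by this choice and is not a separate result. Glucose enters through Slc2a1, whose mean log2 level was 13.09 ± 0.04 (SD, n = 3) in wild-type mock DMSO cells, 13.69 ± 0.09 after Hras and 13.99 ± 0.08 after Hras with GW0742, and 13.95 ± 0.08 and 14.11 ± 0.05 in the matching null Hras groups. Hexokinase traps it as glucose 6-phosphate. Hk2 read 10.19, 10.12 and 10.25 in the 3 wild-type mock DMSO arrays, 10.34, 10.35 and 10.27 with GW0742, 9.92, 9.70 and 9.86 in null mock DMSO arrays and 9.85, 9.79 and 9.78 in null mock GW0742 arrays. After Hras Hk2 read 10.01, 9.89 and 10.16 in the 3 wild-type Hras DMSO arrays, 10.60, 10.65 and 10.83 with GW0742, 10.32, 10.56 and 10.44 in null Hras DMSO arrays and 10.62, 10.92 and 10.84 in null Hras GW0742 arrays. In wild-type Hras cells the GW0742 arrays of Hk2 all lay above the DMSO arrays (0.67 ± 0.08, 1.59-fold, adjusted p = 1.3e-05), and in mock cells both null groups lay below both wild-type groups. The null Hras DMSO arrays overlapped none of the wild-type Hras DMSO arrays.

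Phosphofructokinase commits the sugar to glycolysis, and 3 genes encode its subunits. Pfkl read 10.11, 10.14 and 10.10 in the 3 wild-type mock DMSO arrays, 10.41, 10.48 and 10.47 with GW0742, 10.50, 10.41 and 10.27 in null mock DMSO arrays and 10.62, 10.40 and 10.40 in null mock GW0742 arrays. After Hras Pfkl read 10.98, 10.95 and 10.93 in the 3 wild-type Hras DMSO arrays, 11.59, 11.51 and 11.67 with GW0742, 11.20, 11.18 and 11.13 in null Hras DMSO arrays and 11.52, 11.63 and 11.49 in null Hras GW0742 arrays. Pfkl was lowest in wild-type mock DMSO cells, highest in both Hras GW0742 groups and separated by ligand within each Hras genotype (0.64 ± 0.06, 1.56-fold, adjusted p = 5.67e-07 in wild-type cells; 0.37 ± 0.06, 1.3-fold, adjusted p = 0.00119 in null cells). Pfkp read 10.50, 10.45 and 10.53 in the 3 wild-type mock DMSO arrays, 10.71, 10.79 and 10.72 with GW0742, 10.28, 10.14 and 10.12 in null mock DMSO arrays and 10.30, 10.07 and 10.08 in null mock GW0742 arrays. After Hras Pfkp read 10.14, 10.15 and 10.27 in the 3 wild-type Hras DMSO arrays, 10.72, 10.94 and 11.02 with GW0742, 10.74, 10.83 and 10.78 in null Hras DMSO arrays and 11.10, 11.38 and 11.22 in null Hras GW0742 arrays. Pfkp was at its lowest in null mock and wild-type Hras DMSO arrays, which overlapped, and GW0742 raised it in Hras cells of both genotypes (0.71 ± 0.08, adjusted p = 3.03e-06; 0.45 ± 0.08, adjusted p = 0.00145). The muscle-type Pfkm fell with Hras in DMSO cells of both genotypes, where Pfkl rose in both. In the same comparisons Pfkp fell in wild-type cells and rose in null cells. Group means of Pfkm were 9.03 to 9.37 in mock and 8.89 to 8.97 in Hras cells.

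Pfkfb3 and Pfkfb4 encode the bifunctional enzymes that set fructose 2,6-bisphosphate, the activator of phosphofructokinase. Pfkfb3 read 8.52, 8.53 and 8.68 in the 3 wild-type mock DMSO arrays, 8.73, 8.80 and 8.82 with GW0742, 8.51, 8.33 and 8.30 in null mock DMSO arrays and 8.44, 8.36 and 8.29 in null mock GW0742 arrays. After Hras Pfkfb3 read 8.70, 8.89 and 9.15 in the 3 wild-type Hras DMSO arrays, 9.80, 10.30 and 10.58 with GW0742, 9.38, 10.28 and 10.26 in null Hras DMSO arrays and 10.41, 10.87 and 10.64 in null Hras GW0742 arrays. The replicate 1 array of null Hras DMSO cells was the lowest of its group for Pfkfb3. GW0742 arrays lay above DMSO arrays in Hras cells of both genotypes, narrowly in null cells. For Pfkfb4 the GW0742 changes after Hras were 0.47 ± 0.09 in wild-type (adjusted p = 0.00111) and 0.48 ± 0.09 in null cells (adjusted p = 0.00172).

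The genes of the middle and last steps had small changes. With GW0742 in wild-type Hras cells Aldoc rose by 0.55 ± 0.08, Pgam1 by 0.27 ± 0.05, Tpi1 by 0.26 ± 0.06, Pgk1 by 0.21 ± 0.06 and the lactate dehydrogenase Ldha by 0.19 ± 0.04. Pgk1 passed in 3 of 6 fits with an array left out (adjusted p up to 0.118), and none of Pgk1, Tpi1 and Ldha passed in the model of those 6 arrays alone (0.0861, 0.0549 and 0.114). Aldoa (0.13 ± 0.04, adjusted p = 0.0658) and the pyruvate kinase Pkm (0.04 ± 0.05, adjusted p = 0.745) did not pass. Hras itself raised Aldoa, Tpi1, Pgk1, Pgam1, Pkm and Ldha in both genotypes, by 0.31 to 0.77. Lactate leaves through Slc16a3. Slc16a3 read 9.21, 9.15 and 9.28 in the 3 wild-type mock DMSO arrays, 9.67, 9.67 and 9.73 with GW0742, 9.72, 9.57 and 9.94 in null mock DMSO arrays and 9.73, 9.66 and 9.67 in null mock GW0742 arrays. After Hras Slc16a3 read 11.08, 11.27 and 11.16 in the 3 wild-type Hras DMSO arrays, 11.87, 11.87 and 12.04 with GW0742, 11.75, 11.88 and 11.91 in null Hras DMSO arrays and 12.13, 12.24 and 12.18 in null Hras GW0742 arrays. Its arrays stepped up from wild-type mock DMSO to the other 3 mock groups, which overlapped, and again to the Hras groups, with null Hras DMSO near wild-type Hras GW0742.

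**Figure D4:**
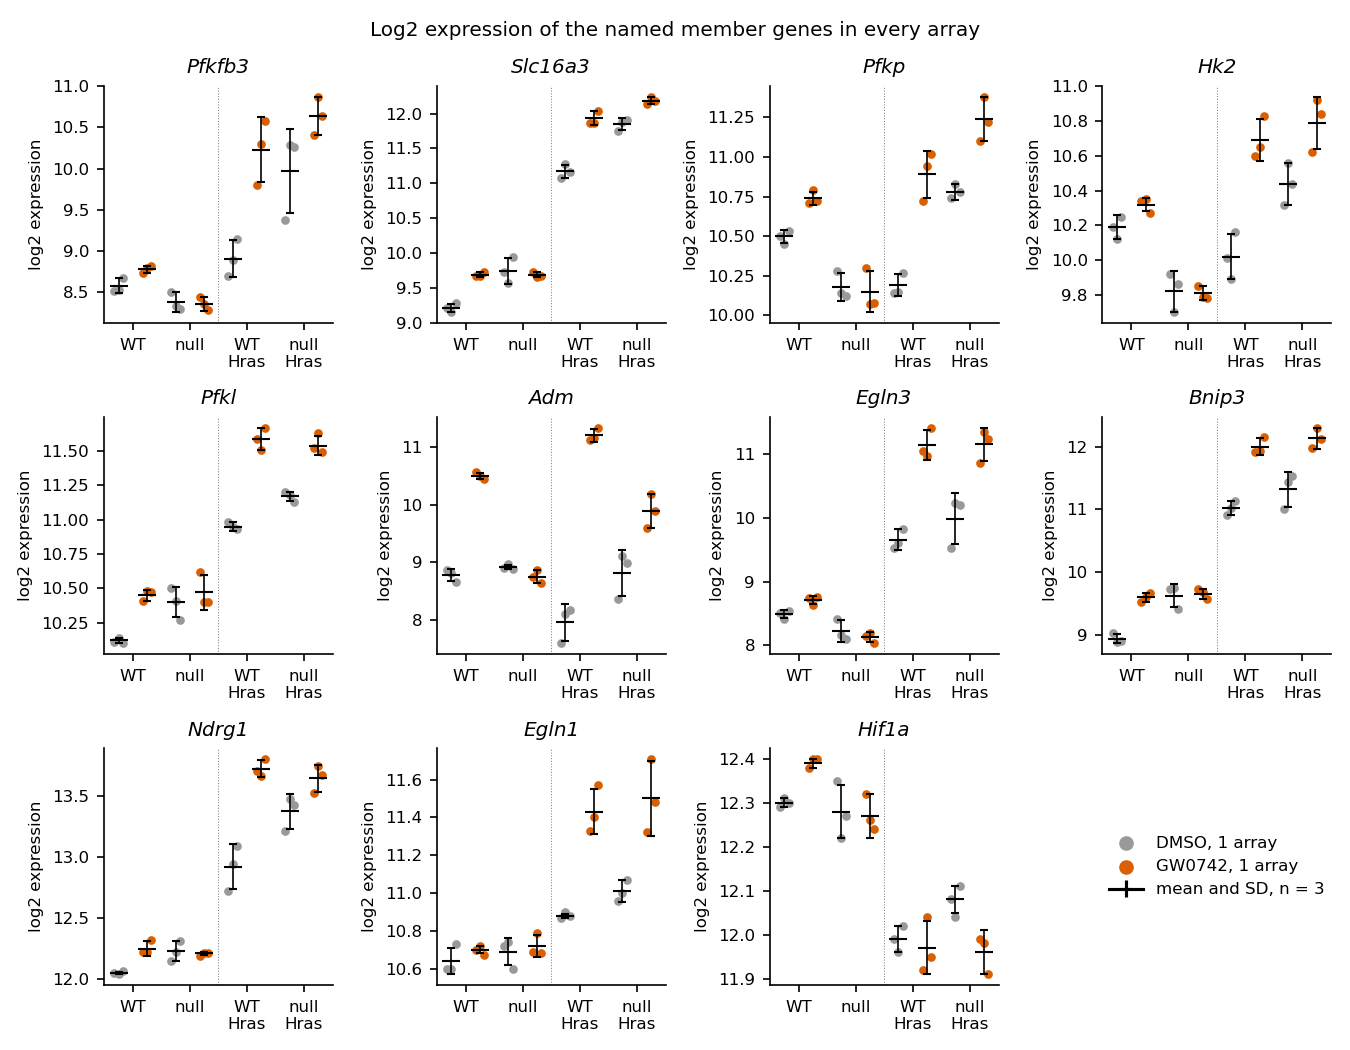
Log2 expression of 11 genes in each array; points are arrays (grey DMSO, orange GW0742), and crosses with bars are the mean and SD of 3 arrays, in mock cells left and Hras cells right of the dotted line. Vertical scales differ between panels; for Adm the wild-type GW0742 arrays lie at 10.45 to 10.56 in mock and 11.11 to 11.33 in Hras cells.

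The HIF subunit and its hydroxylases differed in direction. Hif1a read 12.29, 12.31 and 12.30 in the 3 wild-type mock DMSO arrays, 12.38, 12.40 and 12.40 with GW0742, 12.35, 12.22 and 12.27 in null mock DMSO arrays and 12.32, 12.26 and 12.24 in null mock GW0742 arrays. After Hras Hif1a read 11.99, 11.96 and 12.02 in the 3 wild-type Hras DMSO arrays, 11.92, 12.04 and 11.95 with GW0742, 12.08, 12.04 and 12.11 in null Hras DMSO arrays and 11.99, 11.98 and 11.91 in null Hras GW0742 arrays. Every Hras array of Hif1a lay below every mock array (-0.31 ± 0.05 in wild-type, adjusted p = 1.04e-05, and -0.20 ± 0.05 in null DMSO cells, adjusted p = 0.000983), and GW0742 gave no passing change in any of the 4 kinds of cells. Egln1 read 10.60, 10.60 and 10.73 in the 3 wild-type mock DMSO arrays, 10.70, 10.72 and 10.67 with GW0742, 10.72, 10.74 and 10.60 in null mock DMSO arrays and 10.69, 10.79 and 10.68 in null mock GW0742 arrays. After Hras Egln1 read 10.87, 10.90 and 10.88 in the 3 wild-type Hras DMSO arrays, 11.33, 11.40 and 11.57 with GW0742, 10.96, 11.00 and 11.07 in null Hras DMSO arrays and 11.32, 11.71 and 11.48 in null Hras GW0742 arrays. Egln1 rose with GW0742 in Hras cells of both genotypes (0.55 ± 0.08 and 0.50 ± 0.08), and its mock arrays all lay between 10.60 and 10.79. Egln3 read 8.51, 8.41 and 8.54 in the 3 wild-type mock DMSO arrays, 8.74, 8.63 and 8.75 with GW0742, 8.41, 8.16 and 8.09 in null mock DMSO arrays and 8.15, 8.19 and 8.03 in null mock GW0742 arrays. After Hras Egln3 read 9.53, 9.61 and 9.83 in the 3 wild-type Hras DMSO arrays, 11.05, 10.98 and 11.42 with GW0742, 9.53, 10.23 and 10.20 in null Hras DMSO arrays and 10.87, 11.36 and 11.24 in null Hras GW0742 arrays. Egln3 had a wide gap between mock arrays, at most 8.75, and Hras arrays, at least 9.53, and its Hras GW0742 arrays lay above all Hras DMSO arrays in both genotypes.

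Targets that act on mitochondria, stress and vessels followed. Bnip3 read 9.03, 8.89 and 8.91 in the 3 wild-type mock DMSO arrays, 9.52, 9.61 and 9.67 with GW0742, 9.73, 9.75 and 9.41 in null mock DMSO arrays and 9.73, 9.69 and 9.57 in null mock GW0742 arrays. After Hras Bnip3 read 10.91, 11.03 and 11.13 in the 3 wild-type Hras DMSO arrays, 11.91, 11.93 and 12.16 with GW0742, 11.01, 11.43 and 11.53 in null Hras DMSO arrays and 11.98, 12.30 and 12.12 in null Hras GW0742 arrays. Wild-type mock DMSO arrays of Bnip3 lay below all others, and the Hras GW0742 arrays of both genotypes lay above all Hras DMSO arrays. Ndrg1 read 12.05, 12.04 and 12.07 in the 3 wild-type mock DMSO arrays, 12.22, 12.22 and 12.32 with GW0742, 12.15, 12.22 and 12.31 in null mock DMSO arrays and 12.19, 12.21 and 12.21 in null mock GW0742 arrays. After Hras Ndrg1 read 12.72, 12.94 and 13.09 in the 3 wild-type Hras DMSO arrays, 13.70, 13.66 and 13.80 with GW0742, 13.21, 13.47 and 13.42 in null Hras DMSO arrays and 13.52, 13.74 and 13.67 in null Hras GW0742 arrays. Ndrg1 rose with GW0742 in wild-type Hras cells, and in null Hras cells the change of 0.27 ± 0.08 missed the threshold (adjusted p = 0.0542). Adm read 8.86, 8.81 and 8.66 in the 3 wild-type mock DMSO arrays, 10.56, 10.50 and 10.45 with GW0742, 8.90, 8.97 and 8.88 in null mock DMSO arrays and 8.74, 8.86 and 8.64 in null mock GW0742 arrays. After Hras Adm read 7.60, 8.10 and 8.18 in the 3 wild-type Hras DMSO arrays, 11.11, 11.15 and 11.33 with GW0742, 8.37, 9.11 and 8.99 in null Hras DMSO arrays and 9.59, 10.19 and 9.89 in null Hras GW0742 arrays. The wild-type mock GW0742 arrays of Adm lay above every DMSO array, mock or Hras. Its null mock arrays with and without GW0742 lay between 8.64 and 8.97.

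The remaining targets are given by their changes with Hras and with the ligand. Vegfa had group means of 9.93 to 10.61 in mock and 11.45 to 11.64 in Hras cells, and its GW0742 changes after Hras did not pass (0.17 ± 0.06, adjusted p = 0.0863, and -0.05 ± 0.06, adjusted p = 0.72). Ddit4, an inhibitor of mTORC1 signalling, rose with Hras in both genotypes, by 0.71 ± 0.10 (wild-type) and 0.91 ± 0.10 (null). Its GW0742 changes after Hras were below 0 in both genotypes without passing (-0.15 ± 0.10, adjusted p = 0.528, and -0.32 ± 0.10, adjusted p = 0.0667). P4ha1 and P4ha2 rose with GW0742 after Hras in both genotypes, by 0.23 to 0.54. In null Hras cells P4ha1 passed in 3 of 6 fits with an array left out, and P4ha2 in 5 of 6. With only the null Hras arrays compared in the limma model, neither passed (adjusted p = 0.312 and 0.201). Kdm3a, a histone demethylase, rose with GW0742 by 0.31 ± 0.07 in wild-type Hras cells (adjusted p = 0.0085). The call was lost without replicate 3 of wild-type Hras GW0742 cells (0.0748) or replicate 2 of wild-type Hras DMSO cells (0.0525), and with only the arrays compared (0.056). In null Hras cells its change was 0.14 ± 0.07 (adjusted p = 0.356).

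Other genes of both pathways were counted from lists chosen with earlier results of these data known. Of 28 other glycolysis and glucose genes measured (32 listed), 5 rose and 1 fell with GW0742 in wild-type Hras cells, with a median change of -0.02, and in null Hras cells 3 rose and 1 fell. Of all genes 4.46% rose and 1.65% fell in the first comparison and 3.51% and 1.51% in the second. In null Hras cells the glycogen phosphorylase Pygl rose by 0.65 ± 0.09 and Pdk1, which holds pyruvate back from the mitochondria, by 0.42 ± 0.08. Of 33 other hypoxia-response genes measured (35 listed), 9 rose and 0 fell in wild-type Hras cells, and 4 rose and 1 fell in null Hras cells, against the same shares of all genes. Hilpda, a lipid droplet protein, rose by 2.38 ± 0.05 and Angptl4, an inhibitor of lipoprotein lipase and a known PPAR target, by 2.34 ± 0.11 in wild-type Hras cells, with Hmox1, a haem oxygenase, at 0.86 ± 0.13 and Ak4, an adenylate kinase, at 0.83 ± 0.11. In null Hras cells Fam162a, a mitochondrial protein, rose by 0.54 ± 0.07, and Angptl4, with overlapping arrays, changed by -0.37 ± 0.11. The effect of GW0742 after Hras was smaller in null than in wild-type cells for Hilpda (-2.26 ± 0.08, adjusted p = 3.12e-14) and Angptl4 (-2.71 ± 0.15, adjusted p = 2.9e-10). With Hras in DMSO, 16 hypoxia genes rose and 8 fell in each genotype, where 18.4% of all genes rose and 19% fell in wild-type cells and 20.2% and 20.5% in null cells. In null cells the changes were 1.63 ± 0.06 for Ero1a, which oxidises protein thiols, 2.62 ± 0.09 for the glycoprotein Stc2 and -1.97 ± 0.13 for Lox, which crosslinks collagen. In both genotypes the monocarboxylate transporter Slc16a7 fell, with changes of -3.14 ± 0.10 in wild-type and -3.58 ± 0.10 in null cells.

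For 4 genes, Hk1, Pgam1, Bnip3 and Higd1a, the probe set used stands in the array's numbering among probe sets of another chromosome than the gene's own (for Hk1 chromosome 14 in place of 10, for Pgam1 7 in place of 19, for Bnip3 14 in place of 7 and for Higd1a 3 in place of 9), so it may read a copy of the sequence. Hk1, Bnip3 and Higd1a have another probe set at the gene's own place, and Pgam1 has none. In an alternative chosen after seeing the data, Hk1 at its own place rose by 0.25 ± 0.06 with GW0742 in wild-type Hras cells (adjusted p = 0.0147) and with Hras by 0.58 ± 0.06 in wild-type (adjusted p = 8.16e-08) and 0.49 ± 0.06 in null cells (adjusted p = 9.25e-07). The brighter Hk1 probe set gave -0.07 ± 0.06, 0.04 ± 0.06 and -0.02 ± 0.06. For Bnip3 both probe sets rose with GW0742 in wild-type Hras cells, by 0.98 ± 0.12 and by 1.22 ± 0.11 at its own place. Higd1a, a mitochondrial protein induced by hypoxia, rose with GW0742 in wild-type Hras cells by 0.50 ± 0.08 on the brighter probe set (adjusted p = 0.000213), where its own-place probe set gave 0.16 ± 0.12 (adjusted p = 0.584). With these 3 probe sets exchanged, 24 members again rose with GW0742 in wild-type Hras cells, Hk1 in place of Higd1a.

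**Figure D5:**
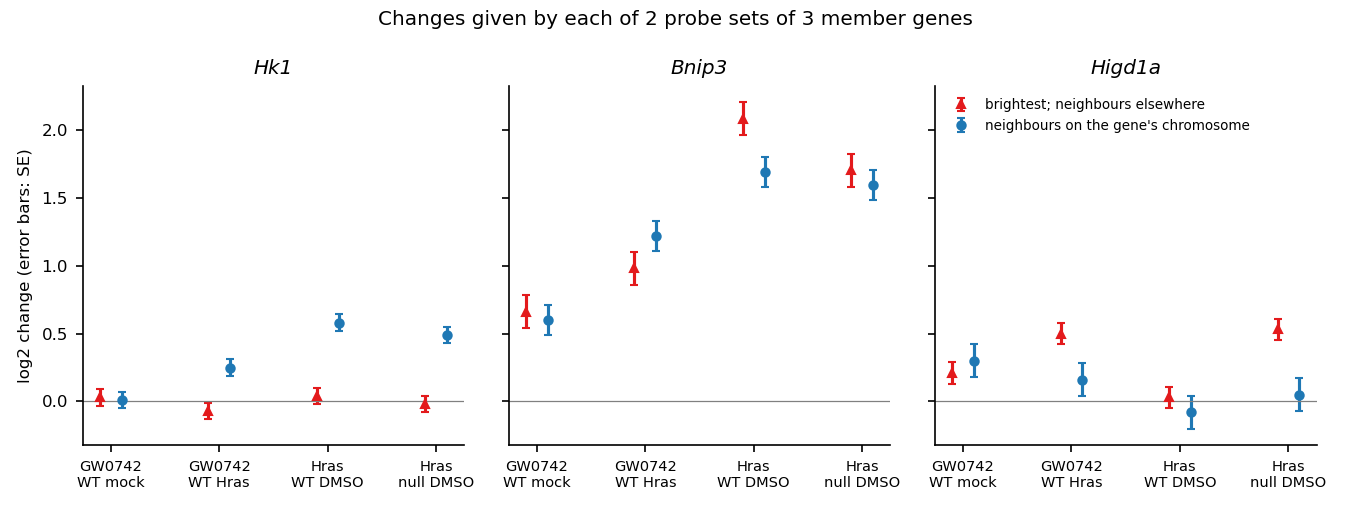
Log2 change ± SE in 4 comparisons from 2 probe sets each of Hk1, Bnip3 and Higd1a: triangles are the brighter probe set used throughout, circles the one whose neighbours lie on the gene's own chromosome. The circles of Hk1 are above the triangles in 3 of 4 comparisons, and those of Bnip3 rise with the triangles in all 4.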

How the data were processed

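Keratinocyte RNA was hybridised to 24 arrays (Affymetrix Mouse Gene 1.0 ST), 3 in each of 8 groups. The authors deposited log2 expression values made with RMA, per the submitters' processing notes; which software, version and genome build they used is not stated in those notes. RMA quantile-normalizes arrays, so a shift shared by most genes would be removed. The values were used as deposited. Of 34760 probe sets, 21640 carried 1 symbol, and the brightest of each gene gave 19937 genes. A limma model (version 3.58.1 in R 4.3.3) of all 24 arrays with 1 mean per group (16 residual degrees of freedom, 4.43 prior) gave 12 comparisons: 8 between pairs of groups and 4 between effects. Its p-values were called at 0.05 after Benjamini-Hochberg adjustment across the 19937 genes, and the script was checked on simulated data. The members and lists were chosen with earlier results of these data known.

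The genes given in every array were the 5 in each class with the largest change with GW0742 in wild-type Hras cells, and Hif1a. All members could be named. Up to 4 passing genes with the largest change per comparison were named from the other lists. Marker lists were counted for basal and suprabasal keratinocytes, fibroblasts, melanocytes, leukocytes and endothelial cells. The alternatives were centred arrays, the mean of a gene's probe sets, the dimmest 40% of genes left out, trend and robust moderation, only the arrays compared, each array left out and a replicate block. After seeing the data, own-place probe sets, a replicate block with only the arrays compared and a fit without the null Hras GW0742 group were added. The transcripts of Hras, Cdkn1a and Areg are not reported here. Figures were drawn with matplotlib 3.10.9.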

Additional observations from a re-analysis of the deposited data

Results flagged for a closer look

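A group of genes responded differently to the same contrast in different cells, by limma's test of the difference (SE and adjusted p beside each value). Null mock cells had a lower GW0742 effect than wild-type mock cells for Adm, by -1.90 ± 0.23 (adjusted p = 4.86e-05), and for Slc16a3, by -0.53 ± 0.11 (adjusted p = 0.0124). After Hras it was lower in null cells for Adm, by -2.17 ± 0.23 (adjusted p = 5.73e-06), for Ndrg1, by -0.53 ± 0.11 (adjusted p = 0.0157), and for Slc16a3, by -0.42 ± 0.11 (adjusted p = 0.0471).

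In wild-type cells the GW0742 effect was larger after Hras than in mock cells for Adm (1.51 ± 0.23, adjusted p = 0.000637), Egln3 (1.27 ± 0.22, adjusted p = 0.0017), Pfkfb3 (1.11 ± 0.27, adjusted p = 0.0304) and Ndrg1 (0.60 ± 0.11, adjusted p = 0.00425). The signed change with Hras in DMSO cells was higher in null than in wild-type cells for Pfkfb3 (1.25 ± 0.27, adjusted p = 0.0024), Pfkfb4 (0.91 ± 0.12, adjusted p = 1.95e-05), Pfkp (0.91 ± 0.11, adjusted p = 7.85e-06) and Hk2 (0.78 ± 0.12, adjusted p = 8.41e-05). Adm in all 3 of its comparisons, Egln3, Ndrg1 in the comparison of Hras with mock cells, and the last 4 passed with each of the 12 arrays left out in turn. The others did not: Slc16a3 in mock cells had an adjusted p of 0.0512 without replicate 2 of wild-type mock DMSO cells, and Ndrg1 by genotype after Hras one of 0.0541 without replicate 2 of null Hras DMSO cells. Slc16a3 after Hras (up to 0.149) and Pfkfb3 for Hras against mock cells (up to 0.113) each passed in 2 of the 12 fits, and both were highest without replicate 3 of wild-type Hras GW0742 cells. The comparisons share arrays, so they are not independent of each other.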

How the results depend on the processing

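In null mock cells 0 members passed with GW0742 in any of 15 other settings. With each array centred on its median, the glycolytic median change with Hras was 0.36 in wild-type and 0.62 in null cells. With the mean of a gene's probe sets, 4 members differed by genotype in the GW0742 effect in mock cells, and the Hras change of Hk1 in null cells was 0.24, opposite in sign to the value reported. With own-place probe sets, chosen after seeing the data, Hk1 turned to 0.25 with GW0742 in wild-type Hras cells and to 0.49 with Hras in null cells, and the glycolytic median of the GW0742 effect, Hras minus mock, was 0.21. With only the arrays compared, 0 members passed with GW0742 in null Hras cells and 1 in the genotype difference after Hras.

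With 1 array left out at a time, members called ranged from 1 to 3 for the genotype difference of GW0742 in mock cells, from 1 to 4 for that after Hras, from 8 to 21 for GW0742 in null Hras cells, from 4 to 12 for the GW0742 effect, Hras minus mock, and from 8 to 17 for the genotype difference of Hras. Medians ranged from 0.13 to 0.24 (glycolytic, GW0742 in null Hras cells), from 0.12 to 0.21 (glycolytic, GW0742 effect, Hras minus mock), from 0.23 to 0.36 (non-glycolytic, genotype difference of Hras), from 0.23 to 0.41 (non-glycolytic, null against wild-type Hras cells) and from -0.21 to -0.10 (non-glycolytic, genotype difference of GW0742 after Hras).

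Leaving out the dimmest 40% of genes, so that fewer genes are tested, raised the percent of all genes called from 2.86 to 6.27 (GW0742 in wild-type mock cells), 6.11 to 12.8 (wild-type Hras), 5.02 to 11.8 (null Hras), 37.4 to 58.4 (Hras in wild-type cells), 40.7 to 63.0 (in null cells), 10.4 to 18.8 and 19.4 to 35.2 (genotypes, mock and Hras), 0.848 to 2.11 and 1.73 to 3.63 (genotype difference of GW0742, mock and Hras), 2.47 to 5.52 (GW0742 effect, Hras minus mock) and 16.8 to 30.7 (genotype difference of Hras). The genotype difference of GW0742 in mock cells went to 1.3 with trend and robust moderation and to 1.46 with only the arrays compared, which gave 3.89 for GW0742 in wild-type Hras cells, 0 in null Hras cells and 0.517 for their difference. Beyond the settings' own construction, the cause of these moves was not tested.

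Over all genes, same-numbered arrays of different groups had correlations of their deviations from -0.29 to 0.25, with all 3 numbers over 0.1 in 1 pair of groups, null and wild-type mock DMSO cells (0.14, 0.12 and 0.13), so the numbers were not taken as pairs of the whole design. Over the 34 members the replicate 1 arrays correlated at 0.52 to 0.66 in the 6 pairs of Hras groups. The replicate 3 arrays correlated at 0 in the pair of null Hras groups and at 0.37 to 0.53 in the other pairs. For replicate 2 the values ran from -0.15 to 0.65, the highest in the pair of null Hras groups. With a replicate block in the model of all arrays, 18 members passed with GW0742 in null Hras cells against 17 without it, and the counts were as reported in the other 11 comparisons. With the block and only the arrays compared, 3 members passed there, the percent of all genes called was 0.627, and it was 1.41 and 3.47 for GW0742 in wild-type mock and Hras cells.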
